A study of Daphnia magna with 3 samples.

Results

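The genes of sex determination were examined in RNA sequencing data from adult females of Daphnia magna, a planktonic crustacean. A total of 8 of the 47109 gene records of the deposited table carried a description that names doublesex, a doublesex- and mab-3-related transcription factor (DMRT), transformer, sex-lethal or fruitless. They were found by searching the descriptions for 8 words, of which DMRT as an abbreviation, "sex lethal", intersex and female lethal matched no record. The members fell into 2 records of doublesex 1, 3 DMRT records and 1 record each of a transformer-2 protein, a sex-lethal homolog and fruitless. The series held 1 group of 3 samples, all wild-type females. Each sample was a pool of 5 whole females of the NIES clone, wild type in genotype, aged 12 days and releasing clutch 2, with the eggs removed from the brood chamber. The animals had been raised on a daily ration of algae that the study calls nutrient rich, and polyadenylated RNA was sequenced. No male, embryo, starved or mutant library was analysed here, so that no level below can be set against another sex or treatment.

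In Drosophila, sex is decided within each cell by a cascade of RNA-binding proteins. Sex-lethal, made in females, directs the splicing of transformer, and Transformer acts together with Transformer-2 on the transcripts of doublesex and fruitless. Doublesex proteins share the DM domain, a zinc-binding DNA-binding fold, with the nematode protein MAB-3 and with the DMRT family of vertebrates. In Daphnia sex is set by the environment, and genetically identical mothers make daughters or, under crowding, short days or juvenile hormone, sons. The gene doublesex 1 is needed there for male traits and is known to be more strongly expressed in males than in females.

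Gene records received 8679171 to 9092389 counts per library. A record without counts could still lie at up to 0.354, 0.353 and 0.309 CPM in replicates 1, 2 and 3, the level of 3 counts (CPM, the count over the library size after scaling by the trimmed mean of M-values, TMM). This limit covers counting error only. The labelled sex and tissue were checked against records of female and whole-body genes. Records described as vitellogenin, the yolk precursor made by egg-producing females, summed to 67916, 81894 and 42103 CPM in replicates 1, 2 and 3. Replicate 3 was the lowest for yolk and also for myosin heavy chain, which summed to 5144, 4684 and 2981 CPM. It was the highest for haemoglobin (15828, 16056 and 18684 CPM). Trypsin records summed to 9232, 9712 and 9745 CPM, nearly equal in replicates 2 and 3. Opsin records summed to 963, 1142 and 961 CPM. Of the 24 vitellogenin records, 21 were detected in every library, against 65.5% of described records. Detected likewise were 5 of 8 myosin heavy chain, 13 of 27 haemoglobin, 34 of 61 opsin and 44 of 72 trypsin records. The shares of these other markers were smaller than that of described records. In whole bodies a level cannot be assigned to a tissue, and fewer cells that express a gene cannot be told apart from less RNA per cell.

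The sex-lethal homolog and the transformer-2 record were the abundant members, and the downstream doublesex 1 record and fruitless were intermediate. The DMRT records were near or below the detection limit, except the A2-like record in replicate 1, at 1.18 CPM. All 8 members had at least 1 count in some library, and 5 had counts in every library, against 61.1% and 42.3% of all records. Described records, to which the members belong by the rule, were detected in every library in 65.5% of cases. Summed over the members, counts amounted to 0.0259% of the counts in gene records in replicate 1, 0.0289% in replicate 2 and 0.0284% in replicate 3. The 5 members detected throughout had a median of 18.6 CPM, against 7.28 CPM over all records detected throughout and 15.7 CPM over those with a description. These medians describe the members and were not tested.

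**Figure D1:**
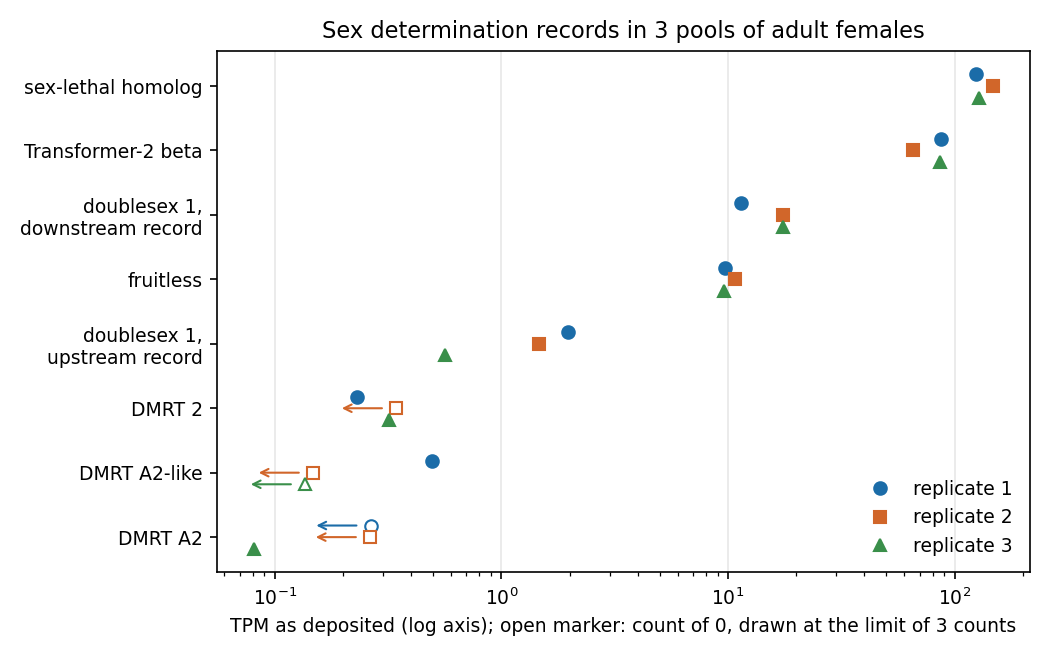
The level of each of the 8 members in each library, as deposited TPM (abundance scaled for record length and library) on a logarithmic axis, with 1 marker per replicate. Open markers with an arrow stand for a count of 0 and are drawn at the level that 3 counts would give. The sex-lethal homolog and Transformer-2 beta lie at 65.6 TPM or more in every library, whereas each of the 3 DMRT records had a count of 0 in at least 1 library.

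The most abundant member was the sex-lethal homolog (Dapma7bEVm010181sc02865NoSplit, scaffold02865, 544455 to 546523, plus strand), whose fly counterpart is an RNA-binding splicing and translation regulator. It received 1481, 1767 and 1656 counts in replicates 1, 2 and 3. Its level was 124, 147 and 127 TPM in the same order, with a mean of 133 ± 12.5 TPM (SD, n = 3). The libraries lay close together, with replicate 2 the highest. By TPM the record stood at percentile 94.9 of the 19927 records detected throughout, and at percentile 90.5 of the 309 such records with the gene ontology (GO) term RNA binding. Outside drosophilids, in flies such as the housefly, Sex-lethal is made in both sexes and does not act as the sex switch. The record spanned 2069 bp, of which 1612 bp were counted as exon, and overlapped no other record.

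The record of Transformer-2 protein like protein beta (Dapma7bEVm004407sc02569NoSplit, scaffold02569, 340982 to 342643, plus strand) was the next in abundance. Transformer-2 proteins are splicing activators that bind exonic enhancers, and the vertebrate beta form acts on many transcripts in both sexes. The record received 546, 412 and 589 counts in replicates 1, 2 and 3, that is 87.5, 65.6 and 86.6 TPM. Its mean of 79.9 ± 12.4 TPM (SD, n = 3) lay at percentile 92.1 of all records and at percentile 85.0 of the RNA-binding records, both among those detected throughout. Replicate 2 was the lowest here. An undescribed record on the same strand (341363 to 343440) shared 1281 bp with it and took 38, 62 and 104 counts. Counted together, the records had 584, 474 and 693 counts, so that replicate 2 remained the lowest and replicate 3 was the highest. A record described as transformer itself, the partner of Transformer-2 in insects, was not among the matches, which says only that no description holds that name by itself.

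The 2 records described as doublesex 1 lay on the plus strand of scaffold02190, separated by 10484 bp, and differed strongly in level. The downstream record (Dapma7bEVm005257sc02190NoSplit, 2022973 to 2024743) received 118, 182 and 198 counts in replicates 1, 2 and 3. The upstream record (Dapma7bEVm006829sc02190NoSplit, 2011392 to 2012488) received 16, 12 and 5 counts. The place of replicate 1 differed between them, since it was the lowest for the downstream record and the highest for the upstream record.

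Per length, the downstream record stood at 11.4, 17.5 and 17.6 TPM and the upstream record at 1.97, 1.47 and 0.566 TPM in replicates 1, 2 and 3. The means were 15.5 ± 3.53 TPM and 1.34 ± 0.713 TPM (SD, n = 3), at percentiles 69.3 and 23.4 of the records detected throughout. Within libraries the downstream record exceeded the upstream record by 2.53, 3.57 and 4.96 on the log2 scale of TPM, with a mean of 3.69 ± 1.22 (SD). The downstream record was higher in 3 of 3 libraries, and flipping the signs of these log ratios in every way (exact permutation, two-sided) returned p = 0.25, the smallest value that 3 libraries allow. Pooled over libraries, the ratio per length was 11.8, with an exact 95% interval of 8.32 to 17.4 for counting error alone.

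The upstream record took 11.9%, 6.19% and 2.46% of the doublesex 1 counts in replicates 1, 2 and 3. The Wilson 95% intervals, for counting error only, were 7.48 to 18.5%, 3.57 to 10.5% and 1.06 to 5.64%, so that those of replicates 1 and 3 did not overlap. The Daphnia magna genome is known to carry a pair of doublesex genes, and the table gives both records the same name, which leaves unsaid which gene each stands for. Reads in stretches shared by the records could have been divided between them by the mapping.

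The records also differed in their models and annotation. The upstream record was counted over its whole span of 1097 bp, whereas the downstream record spanned 1771 bp with 1399 bp of exon. Both carried the GO terms of sequence-specific transcription factors and of the nucleus, and the upstream record had in addition the term integral component of membrane. Between them lay 2 undescribed records on the same strand. The longer (2017401 to 2023193) overlapped the downstream doublesex 1 record by 221 bp and had 1, 2 and 3 counts in replicates 1, 2 and 3, and the shorter (2020223 to 2022906) had 2, 2 and 4 counts. With the overlapping record added, the downstream doublesex 1 record came to 119, 184 and 201 counts.

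**Figure D2:**
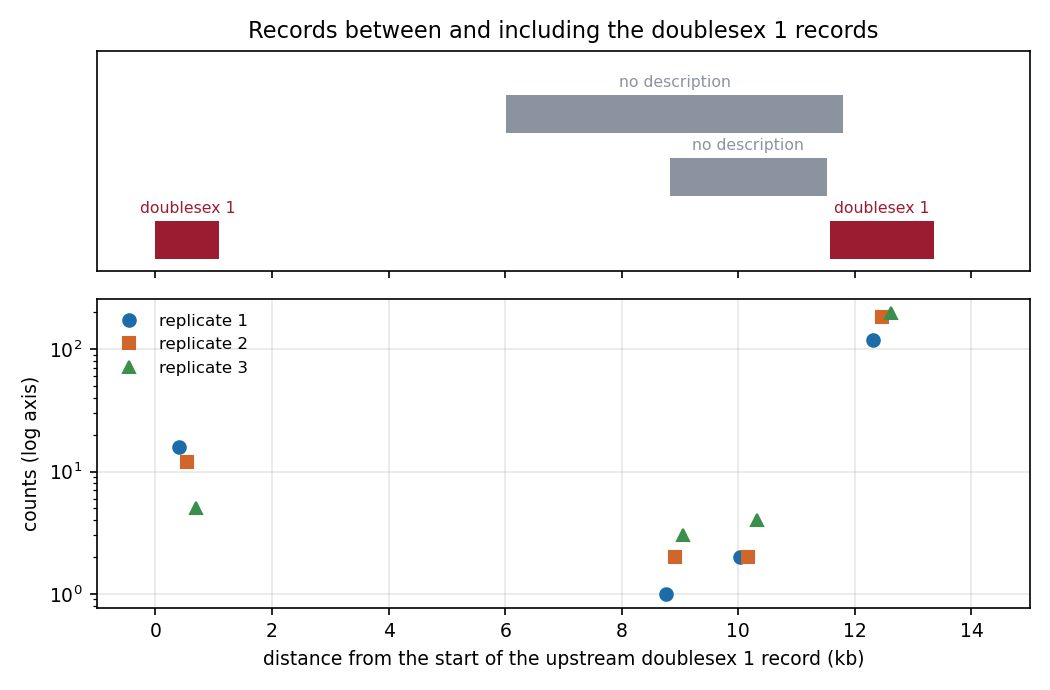
Upper panel, the 2 doublesex 1 records and the 2 undescribed records between them, drawn to scale against the distance in kb from the start of the upstream record. Lower panel, the counts of each record in each replicate on a logarithmic axis, placed around its centre with a small sideways offset for each replicate, with 118 to 198 counts for the downstream doublesex 1 record, 5 to 16 for the upstream record and 4 or fewer for the others.

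Fruitless (Dapma7bEVm005975sc02649NoSplit, scaffold02649, 188836 to 190820, plus strand) encodes in Drosophila a BTB zinc-finger transcription factor that shapes male courtship circuits. Its CPM had the narrowest range between libraries among the 5 members detected throughout. The record received 121, 135 and 131 counts in replicates 1, 2 and 3, at 9.71, 10.8 and 9.65 TPM. The mean was 10.04 ± 0.633 TPM (SD, n = 3), at percentile 59.4 of the records detected throughout and at percentile 47.6 of those with a description. The lowest and highest libraries differed by 1.18-fold in CPM. The record overlapped no other, and the nearest neighbours lay 116 bp and 586 bp away on the minus strand.

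The DMRT records were hardly detected, with 16 counts over 3 records and 3 libraries. The record of doublesex- and mab-3-related transcription factor 2 (Dapma7bEVm006042sc02545NoSplit, scaffold02545, 64756 to 66633, minus strand) had 2, 0 and 3 counts in replicates 1, 2 and 3. In vertebrates this factor acts in muscle and somite development. The record of doublesex- and mab-3-related transcription factor A2 (Dapma7bEVm013236sc02850NoSplit, scaffold02850, 808658 to 810321, plus strand) had 0, 0 and 1 counts. Its vertebrate namesake acts in the developing brain. Neither record passed 3 counts in any library. A count of 0 allows up to 0.344 TPM for the first record in replicate 2 and up to 0.266 TPM for the second in replicate 1.

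The record described as A2-like (Dapma7bEVm013795sc00512NoSplit, scaffold00512, 799728 to 804685, plus strand) had 10, 0 and 0 counts, all in replicate 1. It lay wholly within an undescribed record of the same strand (799471 to 804867), which had 11, 16 and 17 counts in replicates 1, 2 and 3. Together the records had 21, 16 and 17 counts, with no library at 0. The absence of counts for the A2-like record in replicates 2 and 3 therefore cannot be told apart from their assignment to the overlapping record. Counted with the records that overlap them on the same strand, an alternative chosen after seeing the data, 6 of the 8 members were detected in every library.

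All 5 members described as doublesex 1 or as a DMRT factor carried the GO term for sequence-specific transcription factor activity. Of these, 2, the doublesex 1 records, were detected in every library. Of the 209 records with this term in the table, 76.1% were detected in every library. The downstream doublesex 1 record stood at percentile 68.2 of the 159 detected transcription factor records by TPM, and the upstream record at percentile 16.0. The share for RNA-binding records was 75.7% of 408, and both members with that term were detected throughout. None of the 8 members carried a GO process that names sex, so that their annotation rests on their descriptions.

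**Figure D3:**
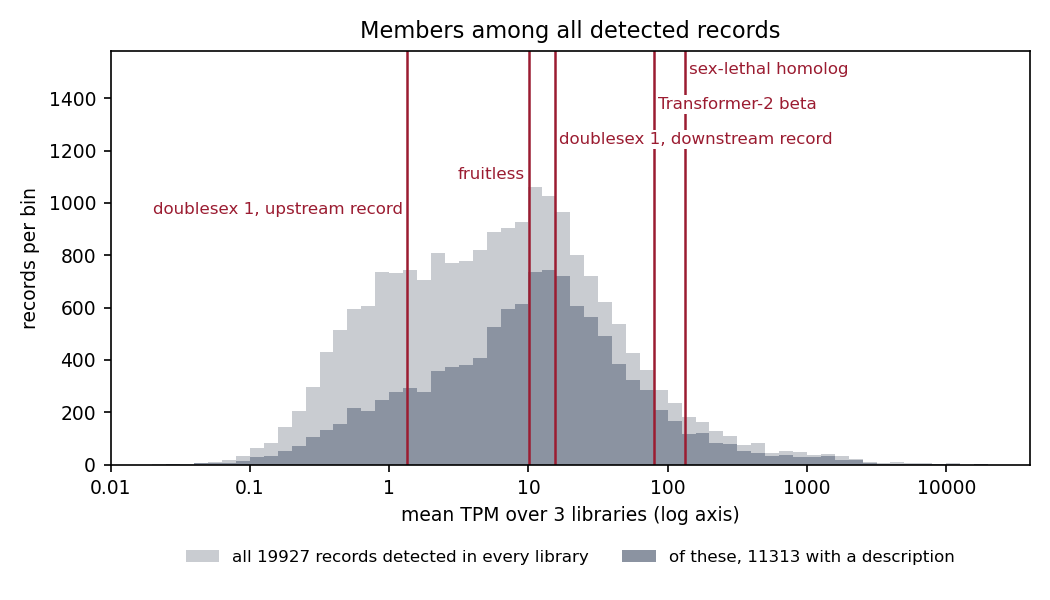
Distribution of the mean TPM over 3 libraries on a logarithmic axis, as records per bin, for the 19927 records detected in every library and for the 11313 of these with a description. Vertical lines mark the 5 members detected in every library, from the upstream doublesex 1 record at 1.34 TPM to the sex-lethal homolog at 133 TPM.

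The levels of the leading record of each name were then ordered by TPM, and neighbours in that order were compared within libraries. The sex-lethal homolog exceeded Transformer-2 beta by 0.74 ± 0.37 on the log2 scale of TPM (SD, n = 3). Transformer-2 beta exceeded the downstream doublesex 1 record by 2.38 ± 0.52, and that record exceeded fruitless by 0.60 ± 0.33. Each of these differences had the same sign in 3 of 3 libraries and was larger than its spread, and the libraries of neighbours did not overlap in any of the 4 steps. By the same exact permutation of signs p was 0.25 in all of these 3 comparisons, the smallest value possible, so that the order is a description. The order was taken from the same values, so that the direction of each difference was set beforehand and is not tested here. The narrowest gap was that between doublesex 1, at 11.4 TPM in its lowest library, and fruitless, at 10.8 TPM in its highest. Fruitless exceeded DMRT 2, which had 5 counts in all, by a pooled ratio per length of 53.8, with an exact 95% interval of 22.9 to 167 for counting error.

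To see how far these levels varied between pools, the counts of each record were tested for differences beyond counting noise. A chi-square test of homogeneity with Benjamini-Hochberg adjustment over 15516 records called 54.5% of them at 0.05. Of the 8 members 5 had enough counts to be tested, and 4 of these were called, a number that is read against that high background. The sex-lethal homolog was called with adjusted p = 1.33e-08, although its libraries differed by 1.22-fold at most. Transformer-2 beta was called with adjusted p = 0.000117 and a 1.33-fold range, and the downstream doublesex 1 record with adjusted p = 0.00144 and a 1.54-fold range. The upstream doublesex 1 record had a 3.67-fold range and lay at the threshold (adjusted p = 0.04995). Fruitless was not called (adjusted p = 0.481). With abundant records this test detects small differences, so that a call does not stand for a large one.

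Each of these calls was lost when a certain library was left out, and this was not the same library for all members. Without replicate 2, its highest library, the sex-lethal homolog had adjusted p = 0.488. Transformer-2 beta had adjusted p = 0.363 without replicate 2, its lowest library. The downstream doublesex 1 record had adjusted p = 0.772 without replicate 1, and the upstream record had adjusted p = 0.589 without replicate 3. Without replicate 1 the upstream record had too few counts to be tested, and with all libraries its call was also lost when total counts replaced the TMM sizes (adjusted p = 0.0821). The members called numbered 2 of 4 tested without replicate 1, 2 of 5 without replicate 2 and 3 of 5 without replicate 3, against 29.0%, 45.0% and 38.6% of all records in the same fits.

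The upstream doublesex 1 record was the single member, of 5 at 1 CPM or more, in which a library was at least 2-fold away from both others, against 12.7% of 15816 records. It was 1 of 5 with a low library, against 10.4% of records, and no member had a high library, against 4.05%. Replicate 3, at 0.515 CPM, lay below replicate 1 at 1.89 CPM and replicate 2 at 1.41 CPM. The summed vitellogenin and myosin heavy chain records were also lowest in replicate 3, whereas those of haemoglobin were highest there. The part of such differences in this result was not tested. The biological coefficient of variation (BCV) estimates the spread between libraries beyond counting noise. In edgeR it is drawn towards the values of records of like abundance, and it was 0.501 for the upstream doublesex 1 record. It was 0.195 for the sex-lethal homolog, 0.202 for Transformer-2 beta, 0.242 for the downstream doublesex 1 record and 0.217 for fruitless. These values do not rank the members by their own spread, as fruitless, not called by chi-square, stood above the sex-lethal homolog. The median over these 5 members was 0.217, against 0.263 over 15816 records.

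**Figure D4:**
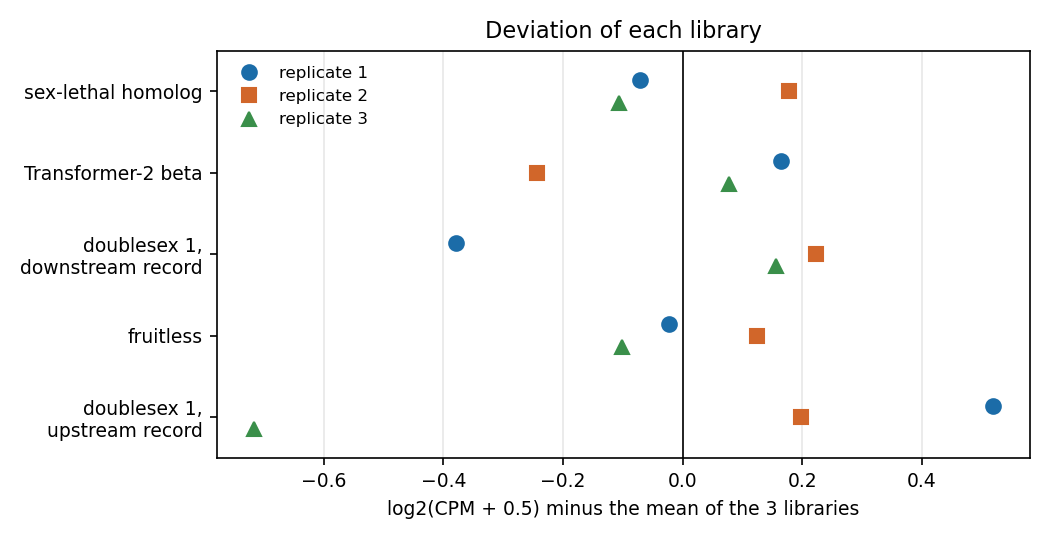
Deviation of each library from the mean of the 3 libraries, on the log2(CPM + 0.5) scale, for the 5 members that were tested. Replicate 1 lies at -0.38 for the downstream and at 0.52 for the upstream doublesex 1 record, replicate 3 at -0.72 for the upstream record, and all deviations of fruitless lie between -0.10 and 0.13.

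Genes that act before doublesex or beside it were examined from 6 lists of description words. In Daphnia, the bZIP factor Vrille activates doublesex 1, and the RNA-binding protein Shep (alan shepard) restrains it. Vrille (Dapma7bEVm024382sc03297NoSplit) was expressed in every library, with 190, 170 and 150 counts in replicates 1, 2 and 3 and 10.03, 8.92 and 7.26 TPM. It was called as varying beyond counting noise (adjusted p = 0.00595). The gene model of alan shepard was split into 2 records on different scaffolds, with 167, 149 and 72 counts for the main part (Dapma7bEVm009763sc01028Split02) and 27, 22 and 7 counts for the minor part (Dapma7bEVm009763sc00446Split01). In both parts replicate 3 was more than 2-fold below the other libraries. It was also low for the upstream doublesex 1 record and for the yolk and muscle records, whose part was not tested. A library at least 2-fold below both others was found in 10.4% of the 15816 records at 1 CPM or more. Both parts overlap other records, with which reads could have been divided. The main part stood at 15.2, 13.5 and 6.01 TPM (adjusted p = 9.87e-12) and the minor part at 5.30, 4.29 and 1.26 TPM (adjusted p = 0.00192). All 3 records of these regulators were detected in every library, against 65.5% of described records, and called, against 54.5% of all records.

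Juvenile hormone, the signal by which Daphnia mothers produce sons, was represented by 17 records, of which 13 were detected in every library, against 65.5% of described records, and 11 of 14 tested were called, against 54.5% of all records. The list also holds nuclear receptors, coactivators and other relatives not specific to this hormone, and its most abundant record, nuclear receptor coactivator 4 at 81.5 ± 8.02 TPM (SD, n = 3), is in mammals a receptor for ferritin breakdown. A record of the steroid receptor coactivator (Dapma7bEVm014968sc02891NoSplit), the partner of the hormone receptor Met, had 720, 581 and 177 counts in replicates 1, 2 and 3, with replicate 3 again low (adjusted p = 2.75e-86), as were the yolk and muscle records there, whose part was not tested. A second record with the same description (Dapma7bEVm016745sc02891NoSplit), lying within the span of the first, had 36, 33 and 40 counts. Replicate 3 was not low there, and the record was not called (adjusted p = 0.944). Another overlapping record, nuclear receptor coactivator 2 (Dapma7bEVm028532sc02891NoSplit), had 515, 464 and 400 counts. Reads could therefore have been divided among these records. Juvenile hormone acid O-methyltransferase-like (Dapma7bEVm007308sc00915NoSplit), named after the enzyme of the last step of hormone synthesis, was low, with 15, 19 and 12 counts and 2.22 ± 0.584 TPM (SD, n = 3). It was not called (adjusted p = 0.343). No description held the words methoprene-tolerant.

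The cofactors that Sex-lethal uses in Drosophila gave 3 records, through 2 of the 11 terms searched. All 3 records were detected in every library, against 65.5% of described records, which says nothing of cofactors that no description names. The E3 ubiquitin-protein ligase Hakai, a part of the m6A methyltransferase complex, had 169, 124 and 137 counts in replicates 1, 2 and 3 and was called (adjusted p = 0.008). Overlapping records of the N6-adenosine-methyltransferase 70 kDa subunit, which writes the m6A mark, had 82, 66 and 65 counts and 13, 10 and 10 counts, and neither was called. The fly genes that count X chromosomes and set early Sex-lethal gave 16 records, through 4 of 11 terms. Of these, 12 were detected throughout, against 65.5% of described records, and 2 of 7 tested were called, against 54.5% of all records. A groucho-like co-repressor led them at 66.7 ± 22.6 CPM (SD, n = 3), with 783, 484 and 490 counts and replicate 1 the highest. A second groucho-like record stood at 20.0 ± 1.63 CPM and a runt-like record at 3.84 ± 0.464 CPM. One match, protein inscuteable, was found through the letters of scute and acts in asymmetric cell division.

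Of the dosage compensation genes, which in Drosophila raise the output of the single male X, 2 records were found, through 1 of 4 terms. Both were detected in every library, against 65.5% of described records. Male-specific lethal 1 homolog had 122, 109 and 110 counts and male-specific lethal 3 homolog 46, 36 and 45 counts in replicates 1, 2 and 3. Neither was called as varying beyond counting noise, against 54.5% of all records. The words for genes first tied to sex in other animals gave 10 records, and 8 were detected throughout, against 65.5% of described records. All came through the letters SOX, the only 1 of 7 terms that matched. Any description with these letters was taken, so that the records are not known here as sex genes. Transcription factor SOX-6 led them at 28.8 ± 3.64 CPM (SD, n = 3), followed by a Sox-11-like record at 12.0 ± 3.21 CPM and putative SOX-15 at 3.86 ± 0.665 CPM. One match was a bacterial-type sulfur oxidation cytochrome SoxX, with no counts. Over all 6 lists, 41 of 51 records were detected in every library, against 65.5% of described records. With at least 3 counts asked for in every library the number was 36, and with at least 10 counts it was 28. Of 34 tested, 19 were called, a share close to the 54.5% of all records, while 7 of 35 had a library 2-fold apart, against 12.7%.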

How the data were processed

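The authors mapped reads to the wFleaBase genome of D. magna in CLC Genomics Workbench 12 and deposited total counts per gene record. Which genome version and strand setting were used is not given in the sources used here, so overlapping records may share reads. The deposited RPKM and TPM values are scaled for length. A deposited signal named CPM holds counts scaled by library. Exon lengths were back-calculated from counts and RPKM. The study describes sampling in triplicate by the same culture methods, for libraries made elsewhere, and the labels do not tie each sample to a culture of its own, so spread between samples may be partly technical. Intervals cover counting error only. CPM and BCV were computed with edgeR 4.0.16 (R 4.3.3), with DESeq2 1.42.0 as an alternative, and the other values with scipy 1.17.1. The chi-square test took records averaging 10 counts or more and compared counts with TMM sizes. It was tried on simulated counts with counting noise and planted changes only. As they held no other spread between libraries, the trial does not show how the test behaves with such spread. Alternatives varied the scaling, the filters, the overlapping records and the replicates. Full values are given for the leading record of each name, every doublesex, DMRT and transformer record, members with a library 2-fold apart, the 3 most abundant records of each list, and vrille, shep and juvenile hormone acid O-methyltransferase. Inscuteable, SoxX and the second steroid receptor coactivator record fall outside this rule and were named after their values were seen. The members and lists were chosen with earlier results of these data known, and the GO classes after the annotation was seen.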

Additional observations from a re-analysis of the deposited data

How the results depend on the processing

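Under DESeq2 size factors and total counts, the CPM of each member moved by less than its spread between replicates. The DMRT A2-like record came to 0 CPM without replicate 1, and the DMRT A2 record to 0 CPM without replicate 3. Restricted to records that overlap no other record, 3 members were detected in every library, the median was 14.6 CPM, and 1 of 3 members tested varied beyond counting noise, against 50.1% of 4328 records. Without each replicate in turn, the members varying beyond counting noise numbered 2 to 3, against 29.0% to 45.0% of all records, and those detected in every library 5 to 6. At a mean CPM of at least 5, 0 members had a library 2-fold apart, as the upstream doublesex 1 record falls under that limit. The chi-square call of that record was lost with total counts (adjusted p = 0.0821), with no filter on counts (adjusted p = 0.0808) and among non-overlapping records (adjusted p = 0.0535). Its alternatives ranged from 0.0164 to 0.589. With no filter, 30.7% of 28771 records and 4 members were called, the DMRT A2-like record among them. The DMRT records, with 0 to 10 counts per library, were below the count limit of the chi-square test. No paired analysis was possible because the series holds a single group.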
